A study of Mus musculus with 18 samples.

Results

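Of the transcription factors that govern the passage from B cell to plasma cell, 6 were followed through mouse B cell differentiation. They are Prdm1, Irf4, Xbp1, Zbtb20, Ikzf3 and Creb3l2, chosen by gene symbol, and each was found as 1 row among the 21761 genes of the expression table. The table holds 18 RNA-seq libraries in 6 groups of 3, formed by 3 cell types and 2 genotypes. From lymph nodes came naive B cells (nB), sorted as B220+ GL7- Fas- in mice that had not been immunized, and germinal center B cells (GCB), sorted as B220+ GL7+ Fas+ and able to bind phycoerythrin (PE). Bone marrow gave the plasma cells (BMPC), sorted on CD138. GCB and BMPC were taken 30 days after mice were immunized with PE in complete Freund's adjuvant. All mice carried floxed alleles of both de novo DNA methyltransferases (Dnmt3a fl/fl Dnmt3b fl/fl) on a mixed B6;129S4 background. Dnmt3-deficient mice also carried 1 Cre allele and their Dnmt3-sufficient littermates none, so both genotypes share the floxed alleles and differ by Cre. Cre acts in B cells from the pro-B cell stage on, only the catalytic exons are floxed, and each GCB library pooled 2 mice. The comparisons ask how each factor changes with differentiation and whether it differs between the genotypes.

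Prdm1 encodes BLIMP-1, a repressor that shuts down the B cell program and without which plasma cells do not mature. Irf4 acts ahead of Prdm1 and stays necessary in plasma cells, and XBP1, produced by splicing of its mRNA when the endoplasmic reticulum is loaded, builds the secretory apparatus. Creb3l2 encodes a membrane-bound factor that is cleaved in the Golgi and raises secretory capacity, Zbtb20 encodes a zinc finger repressor that plasma cells use to persist, and Ikzf3 encodes Aiolos, an Ikaros family factor of B cells and plasma cells.

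Values are fragment counts scaled to exon length and library size (FPKM), from which the reads per gene were recovered. The 21761 genes include 0 immunoglobulin segments, so library sizes and read totals leave immunoglobulin mRNA out. The paper reports a much larger immunoglobulin share of mRNA in BMPC than in nB or GCB. Levels in BMPC are thus relative to the other mRNA. Against all mRNA, rises into BMPC would be smaller and falls larger than given below. The nB libraries held 6692516 to 8987922 reads, the GCB libraries 7644544 to 8903872 and the BMPC libraries 1355231 to 3803197, and of the 11522 genes tested 2991 to 4615 had 0 reads in a BMPC library against 680 to 1252 elsewhere. Each label was checked against its markers. The 7 plasma cell markers summed to 18693 to 51336 FPKM in BMPC and to at most 1643 elsewhere, and the sum of the naive markers was highest in nB. The 7 germinal center markers summed to 1267 or more in GCB, 13.4 to 33.0 in nB and 18.4 to 83.5 in BMPC, where S1pr2, Mybl1 and Rgs13 were at 0 in all 6 libraries and the proliferation gene Mki67 was at 3.66 to 24.1. BMPC libraries also held markers of other marrow cells. Early B markers summed to 415 to 808 FPKM (185 to 378 elsewhere), but the listed genes differed. Dntt was at 305 to 581 (at most 22.3 elsewhere), while Vpreb3 was not raised (71.1 to 354, against 172 to 378 elsewhere). Igll1 and Il7r were higher in every BMPC library, and Rag1, Rag2 and Vpreb1 were at 0 in some. Neutrophil markers summed to 9.37 to 582 (0 elsewhere) and erythroid markers to 160 to 2229. Erythroid markers also summed to 22.5 to 218 in Dnmt3-deficient nB against 0.468 to 1.42 in Dnmt3-sufficient nB, and to at most 11.6 in GCB. Their part in the values below was not tested, and in bulk samples fewer cells of a type and less RNA per cell cannot be told apart.

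The 6 genes were retained by the filter on low values and all were tested. On the mouse genome mm9, Prdm1 lies at chr10:44156983-44248307 on the minus strand, Irf4 at chr13:30841095-30858796 on the plus strand and Xbp1 at chr11:5420662-5425896 on the plus strand. Zbtb20 lies at chr16:42875994-43642715 on the plus strand, Ikzf3 at chr11:98326216-98407345 on the minus strand and Creb3l2 at chr6:37277255-37392146 on the minus strand. Each FPKM sums reads over all exons of a gene, so spliced and unspliced Xbp1 mRNA, or isoforms of Prdm1, are not resolved.

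**Figure D1:**
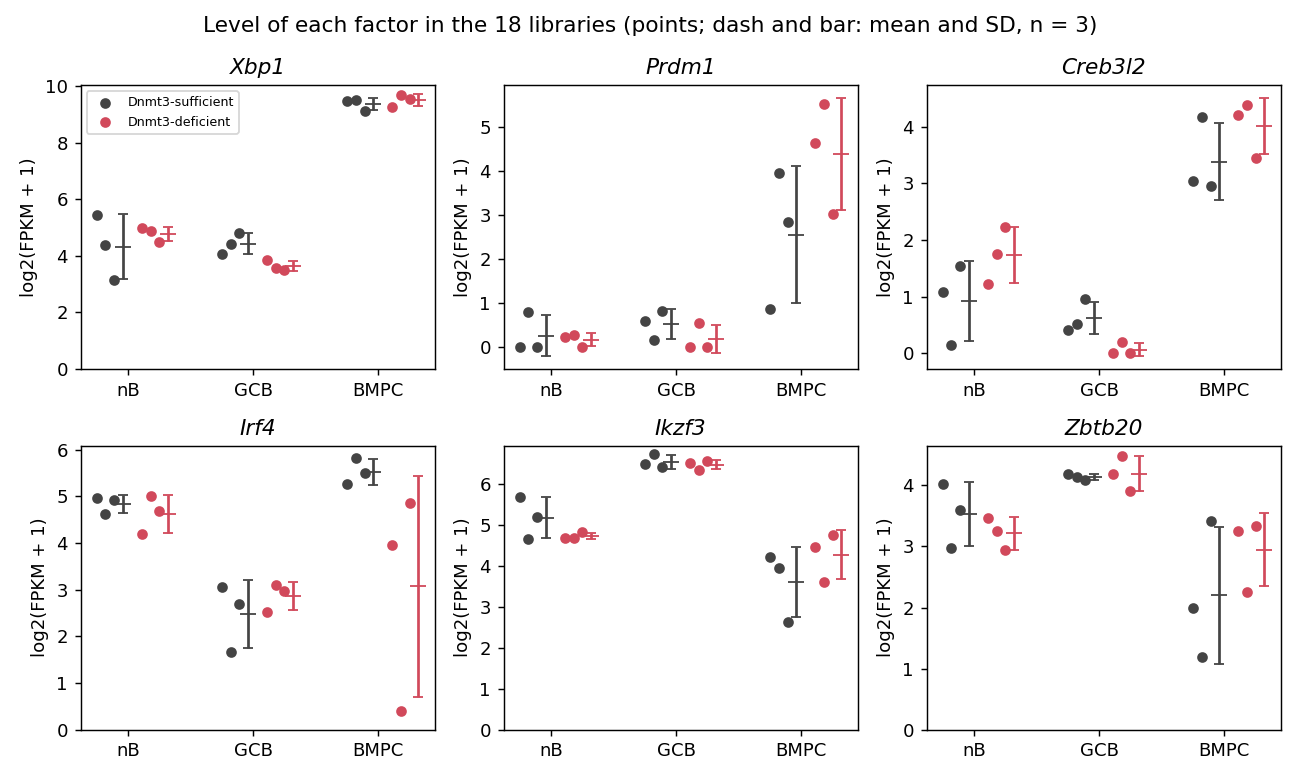
Level of each factor as log2(FPKM + 1) in the 18 libraries, with points for libraries, a dash for the mean and a bar for 1 SD (n = 3), black for Dnmt3-sufficient and red for Dnmt3-deficient mice. Xbp1, Prdm1 and Creb3l2 were highest in BMPC of both genotypes, Ikzf3 was highest in GCB, and Irf4 in Dnmt3-deficient BMPC ranged from 0.315 to 27.9 FPKM.

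Differences are given on the log2(FPKM + 1) scale as log2 change ± SE with limma adjusted p-values, and the threshold was an adjusted p of 0.05 together with a change of 1 or more in size. The fit gives all 18 libraries 1 spread per gene. The median SD over genes was 0.78 and 0.82 in the BMPC groups and 0.27 to 0.41 in the others. Adjusted p-values are thus too small between the genotypes in BMPC and too large between GCB and nB. Those of BMPC against nB or GCB also tend to be too small. With a spread per cell type, genes passing against nB fell from 4299 to 3123 in Dnmt3-sufficient and from 4311 to 3086 in Dnmt3-deficient cells. Against GCB they fell from 3175 to 2424 and from 3719 to 2871. A fit with a spread per cell type, chosen after seeing the data, is therefore given beside the results that turn on it. The scale understates the change of low genes, which concerns Prdm1 and Creb3l2 in nB and GCB. Of the 6 factors, 3 rose from nB to BMPC in both genotypes: Xbp1, Prdm1, which entered the test only through BMPC, and Creb3l2. In Dnmt3-sufficient cells 4 of the 6 passed in this comparison, 3 higher and 1 lower, where 37.3% of all genes tested passed, 9.74% higher and 27.6% lower. In Dnmt3-deficient cells 3 of the 6 passed, all higher, where 37.4% of all genes passed, 6.85% higher and 30.6% lower. Both counts take in Prdm1. Libraries of nB and BMPC did not overlap for 5 of the 6 in Dnmt3-sufficient cells (44.8% of all genes) and for 3 of the 6 in Dnmt3-deficient cells (45.7%). The median change of all genes was -0.70 and -0.84, and with median of ratios scaling it was -0.66 and -0.69.

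The sequences just ahead of the annotated start of these 3 genes are shown because their mRNAs rose together, 250 bases each from the RefSeq promoters of the GRCm38.p6 assembly, 5′ to 3′ on the strand of the gene. Capitals mark CCAAT (or ATTGG on the other strand), CCACG (or CGTGG), the pair of half-sites of the endoplasmic reticulum stress element, and TGACGT (or ACGTCA), the core of the cyclic AMP response element bound by the CREB family. In that assembly they lie at chr10:44458749-44458998 on the minus strand for Prdm1, chr6:37442149-37442398 on the minus strand for Creb3l2 and chr11:5520391-5520640 on the plus strand for Xbp1.
Prdm1: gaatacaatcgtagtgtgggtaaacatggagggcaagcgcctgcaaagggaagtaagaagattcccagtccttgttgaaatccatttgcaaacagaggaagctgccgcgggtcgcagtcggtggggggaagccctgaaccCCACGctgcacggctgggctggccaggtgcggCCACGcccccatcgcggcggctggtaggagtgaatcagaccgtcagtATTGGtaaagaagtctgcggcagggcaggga
Creb3l2: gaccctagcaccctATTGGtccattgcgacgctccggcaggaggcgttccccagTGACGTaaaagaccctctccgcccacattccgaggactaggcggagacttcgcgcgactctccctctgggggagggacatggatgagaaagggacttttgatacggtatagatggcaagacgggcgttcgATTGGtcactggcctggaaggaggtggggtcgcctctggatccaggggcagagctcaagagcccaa
Xbp1: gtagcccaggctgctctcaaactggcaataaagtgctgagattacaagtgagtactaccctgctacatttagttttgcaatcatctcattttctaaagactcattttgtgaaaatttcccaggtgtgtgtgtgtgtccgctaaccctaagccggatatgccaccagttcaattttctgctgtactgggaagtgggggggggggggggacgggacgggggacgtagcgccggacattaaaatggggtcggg
The Prdm1 sequence held CCACG at -110 and -78 and ATTGG at -31, counted from the start, and that of Creb3l2 held ATTGG at -236 and -66 and TGACGT at -196. None of these letters was found in the Xbp1 window. In Prdm1 the CCACG and CCAAT matches lay on opposite strands. The search took each half-site alone, without order or spacing, so it does not show a whole stress element. Over 32851 promoters of the same length, 33.8% held CCAAT, 28.3% CCACG and 6.47% TGACGT on either strand, so the first 2 are common. The IRF pair (GAAA, any 2 bases, GAAA; in 2.98% of promoters) and the ETS-IRF composite (GGAA, any 2 bases, GAAA; in 2.30%) were found in none of the 5 factors with a promoter entry, and the E-box CANNTG (66.2%) was found in those of Prdm1, Xbp1 and Zbtb20. Irf4 held 1 CCACG, at -81. A match is a string of letters and not a binding site, and the promoter of Ikzf3 was not analysed here.

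Xbp1 was the most abundant of the 6 factors in plasma cells and the one with the closest replicates there. In Dnmt3-sufficient replicates 1 to 3 it was at 42.9, 19.7 and 7.91 FPKM in nB, at 15.8, 20.3 and 27.4 in GCB and at 716, 738 and 559 in BMPC. In Dnmt3-deficient replicates 1 to 3 it was at 30.5, 28.2 and 21.3 in nB, at 13.3, 10.9 and 10.5 in GCB and at 622, 835 and 743 in BMPC. Every BMPC library lay more than an order of magnitude above every other library, and Xbp1 ranked between 93 and 200 among all genes in each BMPC library. From nB to BMPC it rose 28.6-fold by group means in Dnmt3-sufficient cells (5.05 ± 0.42, adjusted p = 1.64e-07) and 27.5-fold in Dnmt3-deficient cells (4.74 ± 0.42, adjusted p = 4.04e-07). From GCB it rose 31.7-fold (4.95 ± 0.42, adjusted p = 2.92e-07) and 63.4-fold (5.87 ± 0.42, adjusted p = 3.64e-08). From nB to GCB its change did not pass in Dnmt3-sufficient cells (0.11, 95% interval -0.78 to 1.00) or in Dnmt3-deficient cells (-1.13, 95% interval -2.02 to -0.24, adjusted p = 0.0898). In the latter every GCB library was below every nB library, and the drop passed in a fit without BMPC libraries (adjusted p = 0.0103), with a quality weight per library (adjusted p = 0.00774) and with a spread per cell type (adjusted p = 0.0165).

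Prdm1 was near or at 0 outside plasma cells. Only BMPC libraries lifted it over the filter, so the p-values of its rises into BMPC add no support beyond the levels. In Dnmt3-sufficient replicates 1 to 3 it was at 0, 0.746 and 0 FPKM in nB, at 0.517, 0.120 and 0.783 in GCB and at 0.838, 14.5 and 6.14 in BMPC. In Dnmt3-deficient replicates 1 to 3 it was at 0.184, 0.210 and 0 in nB, at 0, 0.478 and 0 in GCB and at 23.8, 45.2 and 7.15 in BMPC. BMPC libraries lay above all nB and GCB libraries, but Dnmt3-sufficient BMPC replicate 1, with 10 reads, was barely above the highest GCB library, with 36 reads. A library with 0 reads allows a level of up to 0.0825 FPKM in nB and 0.0662 FPKM in GCB, which covers counting error only. Within the Dnmt3-sufficient BMPC group the highest library was 17.3-fold above the lowest, and within the Dnmt3-deficient group 6.33-fold. Prdm1 rose from nB to BMPC in Dnmt3-deficient cells (4.22 ± 0.67, adjusted p = 1.46e-04) and in Dnmt3-sufficient cells (2.29 ± 0.67, adjusted p = 0.0131). The latter did not pass without Dnmt3-sufficient BMPC replicate 2 (1.59, adjusted p = 0.0684) or in a fit to the 2 groups alone (adjusted p = 0.107). From GCB to BMPC it rose in Dnmt3-deficient cells (4.21 ± 0.67, adjusted p = 1.72e-04), and in Dnmt3-sufficient cells it passed with less margin (2.02 ± 0.67, adjusted p = 0.0319). That call was lost without any 1 of the 3 GCB libraries (adjusted p = 0.0566 to 0.106), without BMPC replicate 2 (1.32, adjusted p = 0.147) or 3 (1.88, adjusted p = 0.0753), and in 5 of 10 alternatives that kept all libraries and the threshold. Over these and the libraries left out the adjusted p ran from 0.00234 to 0.150. Between nB and GCB it did not pass (0.27, 95% interval -1.16 to 1.69, in Dnmt3-sufficient cells and 0.01, -1.41 to 1.44, in Dnmt3-deficient cells).

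Creb3l2, whose product shares the transport and cleavage route of ATF6, rose in plasma cells too and was lowest in GCB by group means. In Dnmt3-sufficient replicates 1 to 3 it was at 1.12, 0.113 and 1.92 FPKM in nB, at 0.339, 0.432 and 0.933 in GCB and at 7.19, 17.0 and 6.73 in BMPC. In Dnmt3-deficient replicates 1 to 3 it was at 1.35, 2.35 and 3.68 in nB, at 0, 0.142 and 0 in GCB and at 17.4, 19.9 and 9.95 in BMPC. All BMPC libraries lay above all others, and Dnmt3-deficient GCB were the lowest group, with 8 reads in 1 library and 0 in the other 2. It rose from nB to BMPC 9.84-fold by group means in Dnmt3-sufficient cells (2.46 ± 0.48, adjusted p = 8.04e-04) and 6.40-fold in Dnmt3-deficient cells (2.28 ± 0.48, adjusted p = 0.00153). From GCB to BMPC it rose by 2.76 ± 0.48 (adjusted p = 4.32e-04) and 3.95 ± 0.48 (adjusted p = 1.32e-05). These 4 rises passed under all alternatives run, as did those of Xbp1 and those of Prdm1 in Dnmt3-deficient cells. From nB to GCB it fell in Dnmt3-deficient cells (-1.67 ± 0.48, adjusted p = 0.0276), a call lost without any 1 of these libraries except nB replicate 1 (adjusted p = 0.0627 to 0.125), and did not pass in Dnmt3-sufficient cells (-0.30, 95% interval -1.32 to 0.73).

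Irf4 dipped in the germinal center. In Dnmt3-sufficient replicates 1 to 3 it was at 30.3, 23.4 and 29.5 FPKM in nB, at 7.36, 2.18 and 5.47 in GCB and at 37.3, 55.2 and 44.1 in BMPC. In Dnmt3-deficient replicates 1 to 3 it was at 17.2, 31.0 and 24.7 in nB, at 4.76, 7.53 and 6.82 in GCB and at 14.5, 0.315 and 27.9 in BMPC. The highest of the 6 GCB libraries was below the lowest of the 6 nB libraries, whereas Dnmt3-deficient BMPC replicate 2, with 2 reads on Irf4, lay below every GCB library. By group means Irf4 was 5.54-fold lower in GCB than nB in Dnmt3-sufficient cells (-2.36 ± 0.79, adjusted p = 0.0519) and 3.81-fold lower in Dnmt3-deficient cells (-1.76 ± 0.79, adjusted p = 0.170), and neither passed where all 18 libraries share 1 spread per gene. In a fit to the 2 groups compared, which leaves out the BMPC libraries, both passed (adjusted p = 0.00973 and 0.00824), as they did with a spread per cell type (adjusted p = 2.48e-04 and 0.00345), and over the alternatives the adjusted p ran from 2.48e-04 to 0.195 and from 0.00246 to 0.372. From GCB to BMPC Irf4 rose 9.10-fold in Dnmt3-sufficient cells (3.05 ± 0.79, adjusted p = 0.00787), under all alternatives. In Dnmt3-deficient cells it did not pass (0.21, 95% interval -1.46 to 1.87, adjusted p = 0.874), and without BMPC replicate 2 it did (1.54, adjusted p = 0.0185). Between nB and BMPC it did not pass in Dnmt3-sufficient cells (0.69, 95% interval -0.98 to 2.35), although all 3 BMPC libraries were above all 3 nB libraries, or in Dnmt3-deficient cells (-1.55, 95% interval -3.22 to 0.11), where leaving out BMPC replicate 3 gave a fall that passed (-2.45, adjusted p = 0.0167) and leaving out replicate 2 gave -0.22.

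Ikzf3 peaked in the germinal center. In Dnmt3-sufficient replicates 1 to 3 it was at 50.3, 24.3 and 35.7 FPKM in nB, at 88.7, 105 and 84.3 in GCB and at 17.8, 14.6 and 5.16 in BMPC. In Dnmt3-deficient replicates 1 to 3 it was at 24.7, 24.8 and 27.2 in nB, at 90.7, 80.5 and 93.1 in GCB and at 21.2, 11.2 and 26.0 in BMPC. All 6 GCB libraries lay above all others, and BMPC and nB overlapped in Dnmt3-deficient cells only by replicate 3 of BMPC. From nB to GCB Ikzf3 rose 2.52-fold in Dnmt3-sufficient cells (1.37 ± 0.42, adjusted p = 0.0360) and 3.45-fold in Dnmt3-deficient cells (1.74 ± 0.42, adjusted p = 0.00927). The second rise passed under all alternatives, while the first was lost with a pseudocount of 0.1 (adjusted p = 0.0601) and without nB replicate 2 or 3 or any 1 of the GCB libraries (adjusted p = 0.0776 to 0.154). From GCB to BMPC it fell 7.42-fold (-2.94 ± 0.42, adjusted p = 6.71e-05) and 4.52-fold (-2.20 ± 0.42, adjusted p = 7.91e-04), under all alternatives in both genotypes. From nB to BMPC it fell 2.94-fold in Dnmt3-sufficient cells (-1.58 ± 0.42, adjusted p = 0.00730), a call lost in a fit to the 2 groups alone (adjusted p = 0.0894), and did not pass in Dnmt3-deficient cells (-0.45, 95% interval -1.34 to 0.44).

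Zbtb20 followed Ikzf3 in order, with smaller differences. In Dnmt3-sufficient replicates 1 to 3 it was at 15.3, 6.85 and 11.1 FPKM in nB, at 17.3, 16.6 and 15.9 in GCB and at 2.97, 1.29 and 9.64 in BMPC. In Dnmt3-deficient replicates 1 to 3 it was at 10.1, 8.51 and 6.65 in nB, at 17.2, 21.3 and 13.98 in GCB and at 8.53, 3.77 and 9.07 in BMPC. Within each genotype every GCB library lay above every nB and BMPC library, and nB and BMPC overlapped. From GCB to BMPC Zbtb20 fell 3.58-fold in Dnmt3-sufficient cells (-1.94 ± 0.53, adjusted p = 0.0107), a call lost in a fit to the 2 groups alone (adjusted p = 0.0864), and was 2.46-fold lower without passing in Dnmt3-deficient cells (-1.24 ± 0.53, adjusted p = 0.0776). From nB to BMPC it missed the threshold in Dnmt3-sufficient cells (-1.33 ± 0.53, adjusted p = 0.0539) and passed without BMPC replicate 3 (-1.94, adjusted p = 0.00488), without nB replicate 2 (-1.61, adjusted p = 0.0475) or with genes kept only at FPKM above 3 in at least 3 libraries (adjusted p = 0.0489). In Dnmt3-deficient cells its change was -0.27 (95% interval -1.38 to 0.84). From nB to GCB it did not pass in Dnmt3-sufficient cells (0.60, 95% interval -0.51 to 1.72) or in Dnmt3-deficient cells (0.97, 95% interval -0.14 to 2.08), where it passed by voom on the recovered reads (1.04, adjusted p = 0.0263).

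**Figure D2:**
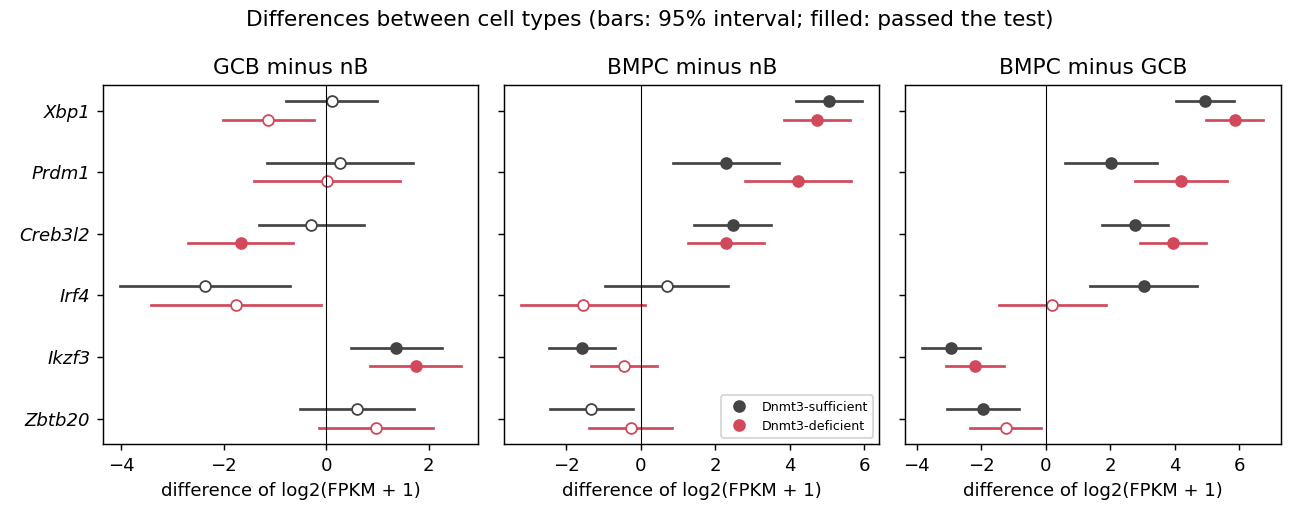
Differences of mean log2(FPKM + 1) between cell types for each factor, with 95% intervals that are not adjusted for the number of genes, black for Dnmt3-sufficient and red for Dnmt3-deficient cells, and filled symbols where the change passed. Xbp1, Prdm1 and Creb3l2 lie to the right of 0 in both comparisons with BMPC, and Ikzf3 lies to the right in GCB against nB and to the left in BMPC against GCB.

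The members' counts in the other comparisons of cell types stand beside these backgrounds. In GCB against nB, 1 of the 6 factors passed in Dnmt3-sufficient cells, where 7.22% of all genes were higher and 6.93% lower (14.2% together), and 2 of the 6 in Dnmt3-deficient cells, where 6.31% were higher and 6.61% lower (12.9% together). Libraries did not overlap for 3 of the 6 in Dnmt3-sufficient cells (45.6% of all genes) and for 5 of the 6, all but Prdm1, in Dnmt3-deficient cells (45.3%). In BMPC against GCB, all 6 passed in Dnmt3-sufficient cells, where 6.67% of all genes were higher and 20.9% lower (27.6% together), and 4 of the 6 in Dnmt3-deficient cells, where 6.14% were higher and 26.1% lower (32.3% together). Libraries did not overlap for all 6 in Dnmt3-sufficient cells (43.3% of all genes) and for all but Irf4 in Dnmt3-deficient cells (44.6%). The counts of BMPC against GCB take in Prdm1, which entered the test only through BMPC.

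The factors also changed their order by level. In nB the means over 6 libraries ran from Ikzf3 (31.2 FPKM) through Irf4 (26.0), Xbp1 (25.1) and Zbtb20 (9.74) to Creb3l2 (1.75) and Prdm1 (0.190), and each overlapped with the next except Zbtb20 with Creb3l2. In GCB Ikzf3 (90.4 FPKM) stood alone, followed by Zbtb20 (17.1) and Xbp1 (16.4), which overlapped, then Irf4 (5.69), then Prdm1 (0.316) and Creb3l2 (0.308), which overlapped. In BMPC Xbp1 (559 to 835 FPKM) stood alone and the other 5, from Irf4 (29.9) to Zbtb20 (5.88), each overlapped with the next. FPKM is per length, but the table counts 1800 exon bases for Xbp1 and 9980 for Zbtb20 where the Gencode vM1 annotation of mm9 has 3248 and 30730, so the place of these 2 depends on the gene model.

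Between the genotypes none of the 6 factors passed in any cell type. In nB, where 0.0521% of all genes passed, the log2 change of Dnmt3-deficient against Dnmt3-sufficient cells was largest for Creb3l2 (0.81, 95% interval -0.22 to 1.83) and the 2 genotypes overlapped for all 6, whereas 8.84% of all genes had no overlap. In GCB, where 0% passed with limma (0 of 11522 genes, with 124 at an unadjusted p under 0.05 and 2 by voom on the recovered reads), Xbp1 was at -0.79 (95% interval -1.68 to 0.10) and Creb3l2 at -0.57 (95% interval -1.59 to 0.46). Both had every Dnmt3-deficient GCB library below every Dnmt3-sufficient one, a separation found in 10.6% of all genes in GCB. Their adjusted p was 1 in both cases. The other 4 factors overlapped in GCB and had changes between -0.35 (Prdm1) and 0.39 (Irf4).

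In BMPC 3.98% of all genes passed, 1.34% higher and 2.65% lower with the deletion (154 and 305 genes). With median of ratios scaling these were 195 and 234, and by voom 106 and 156. With a spread per cell type 17 genes passed in all. The paper, which used edgeR, reports the opposite balance, with more genes raised than lowered in Dnmt3-deficient BMPC. The cause of this difference was not tested, so the balance given here depends on the method. Among the factors, Irf4 and Prdm1 came closest to the threshold, in opposite directions. Irf4 was at 45.6 ± 9.05 FPKM (SD, n = 3) in Dnmt3-sufficient and 14.2 ± 13.8 in Dnmt3-deficient BMPC, a log2 change of -2.45 ± 0.79 (95% interval -4.12 to -0.79, adjusted p = 0.0814). Every Dnmt3-deficient library (0.315 to 27.9 FPKM) lay below every Dnmt3-sufficient library (37.3 to 55.2), as in 10.3% of all genes in BMPC. Dnmt3-deficient replicate 2 decided much of the size, and without it the change was -1.12 (adjusted p = 0.179). Without Dnmt3-deficient replicate 1 or 3 the fall passed (-2.90, adjusted p = 0.0483, and -3.35, adjusted p = 0.0137), and over the alternatives the adjusted p ran from 0.0137 to 0.779. With a spread per cell type it was 0.630 (95% interval -4.70 to -0.21). In Dnmt3-deficient replicate 2, the shallowest of the 18 libraries, 1 read was worth 0.158 FPKM.

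Prdm1 was at 7.16 ± 6.90 FPKM (SD, n = 3) in Dnmt3-sufficient and 25.4 ± 19.1 in Dnmt3-deficient BMPC, a log2 change of 1.84 ± 0.67 (95% interval 0.42 to 3.26, adjusted p = 0.123), and the groups overlapped. It passed without Dnmt3-sufficient replicate 2 (2.54, adjusted p = 0.0295) or Dnmt3-deficient replicate 3 (2.52, adjusted p = 0.0324), was at 1.00 (adjusted p = 0.353) without Dnmt3-sufficient replicate 1, and had an adjusted p of up to 0.782 over the alternatives, with 0.732 for a spread per cell type (95% interval -0.15 to 3.82). The remaining 4 factors overlapped between the genotypes. Their changes were 0.13 for Xbp1 (95% interval -0.76 to 1.02), 0.63 for Creb3l2 (-0.39 to 1.65), 0.67 for Ikzf3 (-0.21 to 1.56) and 0.75 for Zbtb20 (-0.36 to 1.86). Sums of erythroid and macrophage markers, and Jchain, differed between the genotypes in the same libraries. The 5 of 7 erythroid markers in the table summed to 1163 to 2229 FPKM in Dnmt3-sufficient and 160 to 814 in Dnmt3-deficient BMPC. The 7 macrophage markers, of which 2 were at 0, summed to 63.5 to 87.7 and 98.4 to 227. Most of this was Cd68 (40.5 to 87.6 and 98.4 to 158). Lyz2 and Csf1r overlapped, Adgre1 was found only in a Dnmt3-deficient library and C1qb only in a Dnmt3-sufficient one. Sums of early B, neutrophil and T cell markers overlapped between the genotypes. Jchain, which joins antibody multimers, took 3.40% to 5.38% and 6.26% to 9.80% of reads. The other 6 plasma cell markers summed to 2504 to 3942 and 3949 to 4727 FPKM, with Sdc1, Slamf7, Txndc5 and Derl3 overlapping between the genotypes. Their part in the differences of Irf4 and Prdm1 was not tested.

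**Figure D3:**
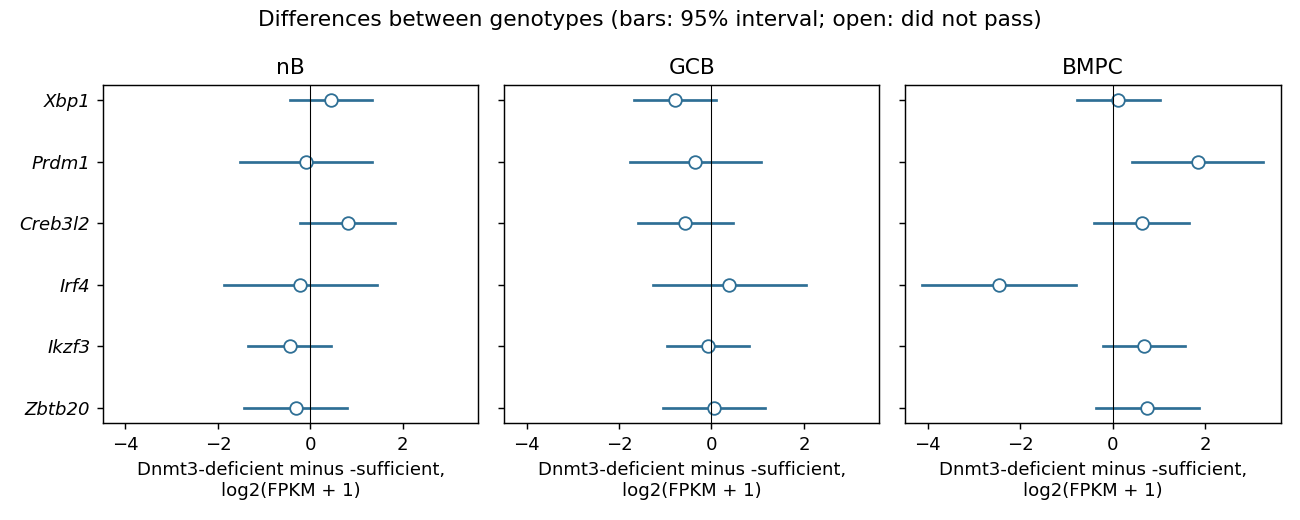
Difference of mean log2(FPKM + 1), Dnmt3-deficient minus Dnmt3-sufficient, for each factor in nB, GCB and BMPC, with 95% intervals that are not adjusted for the number of genes and open symbols since none passed. With 1 spread for all libraries the intervals of Irf4 and Prdm1 in BMPC leave out 0 on opposite sides, and with a spread per cell type that of Prdm1 takes in 0.

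Library by library, Irf4 was uneven within Dnmt3-deficient BMPC, with an SD above that of 92.8% of all genes tested. Prdm1 was above 75.9% of genes in Dnmt3-sufficient and 66.0% in Dnmt3-deficient BMPC, and Zbtb20 above 62.9% in Dnmt3-sufficient BMPC. Dnmt3-deficient replicate 2 had the highest Prdm1 (45.2 FPKM, 333 reads) and Creb3l2 (19.9 FPKM, 188 reads) and the lowest Irf4 (0.315 FPKM, 2 reads) of the 6. Dnmt3-sufficient replicate 1 had the lowest Prdm1 (0.838 FPKM, 10 reads), with Irf4 at 37.3 FPKM (384 reads). Xbp1 varied by 1.49-fold over the same 6 libraries. Among Dnmt3-deficient BMPC the SD of log2(FPKM + 1) was 2.36 for Irf4 and 1.27 for Prdm1, above the median of 0.82 over all genes tested, and 0.60 for Zbtb20, 0.60 for Ikzf3, 0.49 for Creb3l2 and 0.21 for Xbp1, below it. Among Dnmt3-sufficient BMPC, where that median was 0.78, it was 1.56 for Prdm1, 1.12 for Zbtb20, 0.86 for Ikzf3, 0.68 for Creb3l2 and 0.28 for Irf4.

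**Figure D4:**
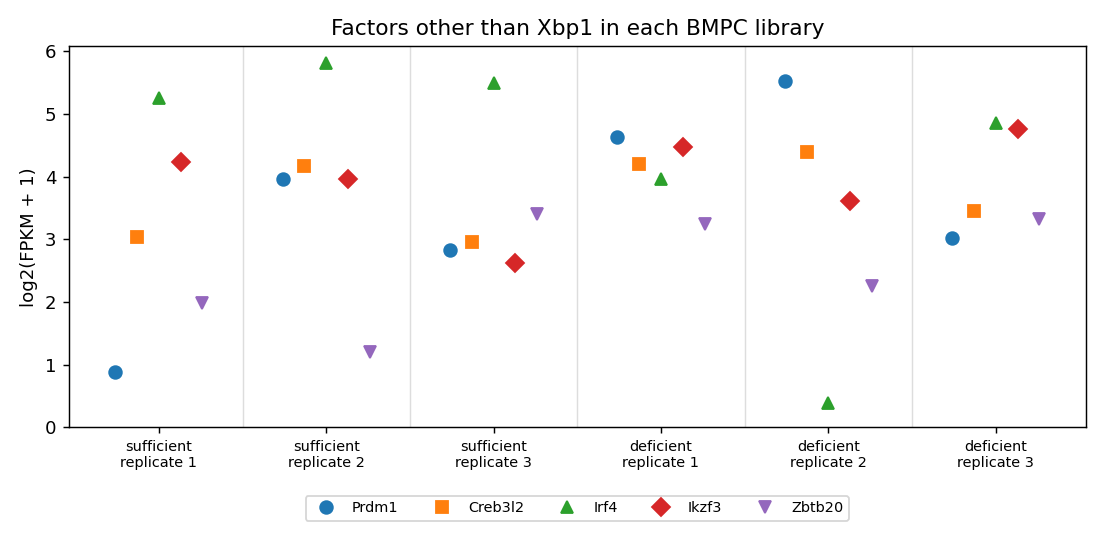
Level of the 5 factors other than Xbp1 as log2(FPKM + 1) in each of the 6 BMPC libraries, 1 column per library. Irf4 is the highest symbol in the 3 Dnmt3-sufficient libraries and the lowest in Dnmt3-deficient replicate 2, where Prdm1 is highest.

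For none of the 6 factors did the test of a genotype difference between cell types pass, here or under the alternatives (lowest adjusted p = 0.0934). In the interaction of genotype with BMPC against nB, where 0.555% of all genes passed (0.165% higher and 0.391% lower), Prdm1 was at 1.93 (95% interval -0.08 to 3.95, adjusted p = 0.436) and Irf4 at -2.24 (-4.59 to 0.11, adjusted p = 0.441). With BMPC against GCB, where 0.425% passed (0.148% higher and 0.278% lower), they were at 2.18 ± 0.95 (adjusted p = 0.476) and -2.84 (-5.19 to -0.49, adjusted p = 0.410). With GCB against nB, where 0% passed with limma (204 genes at an unadjusted p under 0.05 and 0 by voom), the widest departures were -1.37 for Creb3l2 (-2.82 to 0.07) and -1.24 for Xbp1 (-2.49 to 0.02).

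Many genes that XBP1 is known to induce rose in plasma cells. The counts of each list stand against all genes tested, of which 9.74% rose and 27.6% fell from nB to BMPC in Dnmt3-sufficient cells and 6.85% rose and 30.6% fell in Dnmt3-deficient cells. Of 18 targets for folding, degradation and transport in the endoplasmic reticulum, 11 rose and 1 fell from nB to BMPC in Dnmt3-sufficient cells (median 1.87, against -0.70 over all genes), and 11 rose and 0 fell in Dnmt3-deficient cells (median 1.84, against -0.84). Fkbp11, a folding enzyme, went from 12.4 ± 3.43 to 283 ± 65.9 FPKM (SD, n = 3; 4.40, adjusted p = 2.35e-04) and from 8.55 ± 8.30 to 203 ± 64.3 (4.81, adjusted p = 1.14e-04). Edem1, which directs misfolded glycoproteins to degradation, went from 15.5 ± 7.83 to 120 ± 24.4 (2.95, adjusted p = 4.46e-05) and from 15.8 ± 6.82 to 109 ± 24.7 (2.75, adjusted p = 9.65e-05). The cochaperones Sdf2l1 (4.07 and 1.85) and Dnajb9 (2.20 and 3.46) rose in both genotypes too. The 1 that fell was Syvn1, a ubiquitin ligase of the endoplasmic reticulum, in Dnmt3-sufficient cells (-1.87, adjusted p = 0.00250). It was at -1.01 (adjusted p = 0.0708) in Dnmt3-deficient cells. Not all others rose: Hspa5 (0.54 and 0.40), Pdia4 (0.95 and 0.92), Pdia6 (0.14 and 0.56), Dnajb11 (0.28 and -0.05), Hyou1 (0.30 and -0.06) and Wfs1 (-0.88 and -0.07) passed in neither genotype. None of the 18 passed between genotypes in BMPC.

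The sensors of the same response were listed apart. Of 6 genes of the sensor branches, 2 fell and 0 rose from nB to BMPC in Dnmt3-sufficient cells, and 1 fell in Dnmt3-deficient cells (medians -0.37 and -0.47). Beside these, 27.6% and 30.6% of all genes fell and 9.74% and 6.85% rose. Rtcb, the ligase that joins spliced Xbp1 mRNA, fell from 188 ± 17.1 to 78.0 ± 11.2 FPKM (-1.27, adjusted p = 1.57e-04) and from 207 ± 23.8 to 69.4 ± 17.5 (-1.59, adjusted p = 2.01e-05). Ern1, which encodes the IRE1 nuclease that cuts Xbp1 mRNA, was at 3.35 ± 4.37 FPKM in Dnmt3-sufficient and 1.90 ± 3.05 in Dnmt3-deficient BMPC. It did not pass (1.55, adjusted p = 0.0775, and 0.56, adjusted p = 0.530). Dnmt3-sufficient nB were at the floor and the mean of BMPC, with an SD above it, was at least 39.0-fold higher.

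Genes that BLIMP-1 is known to repress fell in plasma cells. Of 8 listed, 6 fell and 0 rose from nB to BMPC in each genotype, where 27.6% and 30.6% of all genes fell. The median stood at -5.25 in Dnmt3-sufficient and -5.26 in Dnmt3-deficient cells, and at -4.88 and -4.63 over the 7 genes above the floor in nB, with BMPC libraries at the floor set to 3 reads each. Pax5, which holds B cell identity, was at 52.6 ± 4.29 and 58.2 ± 6.18 FPKM in nB and had 0 reads in all 6 BMPC libraries, at least 63.9-fold and 39.3-fold lower. Ciita, which switches on MHC class II genes, was at least 806-fold and 392-fold lower, and the ETS factor Spib at least 411-fold and 184-fold lower. Id3, an inhibitor of E proteins, was at 279 ± 45.7 FPKM in Dnmt3-sufficient nB and 4.94 ± 8.55 in BMPC (-6.79, adjusted p = 1.52e-06). Pax5, Ciita and Spib were thus at 0 also in Dnmt3-sufficient BMPC replicate 1, where Prdm1 had 10 reads. Myc did not pass in either genotype (0.94, adjusted p = 0.0698, and -0.21, adjusted p = 0.702). Of 6 genes listed as induced by BLIMP-1, 3 rose and 0 fell in each genotype (median 1.69 in Dnmt3-sufficient cells, or 1.63 with nB at the floor). They were Tnfrsf17, the BCMA receptor (0 reads in nB, 373 ± 174 and 519 ± 3.70 FPKM in BMPC, at least 774.5-fold and 1058-fold higher), Ell2, an elongation factor of secreted immunoglobulin mRNA (1.83 and 2.64), and Fkbp11, which is also an XBP1 target.

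**Figure D5:**
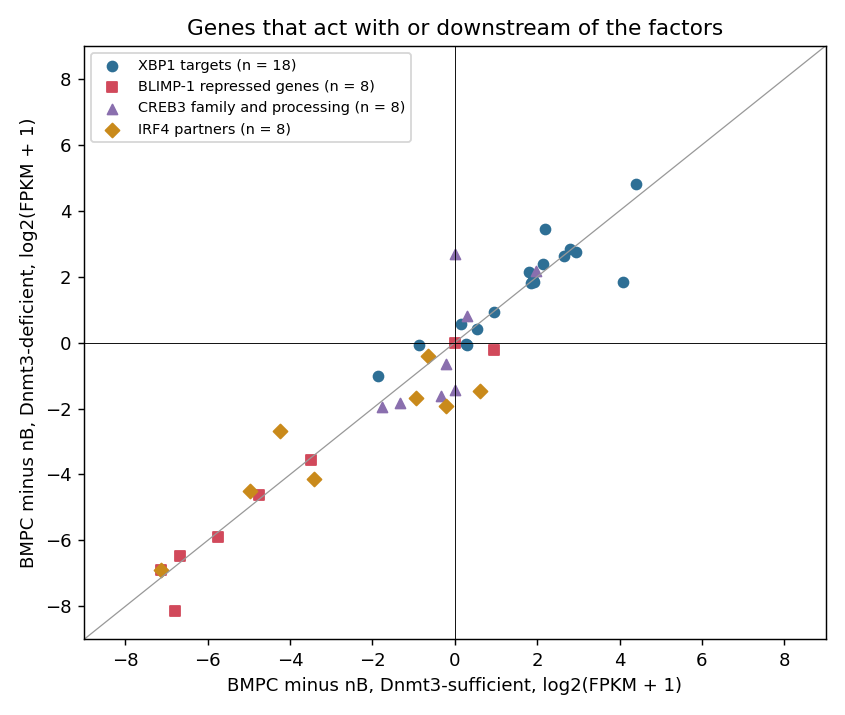
Change from nB to BMPC on the log2(FPKM + 1) scale in Dnmt3-sufficient (x) and Dnmt3-deficient (y) cells for genes of 4 lists, with 1 symbol per gene and the diagonal of equal change. XBP1 targets lie mostly at the upper right and genes repressed by BLIMP-1 at the lower left, where several have 0 reads in BMPC so that their position depends on the added 1.

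Several factors that bind DNA with IRF4 or act beside it fell in plasma cells. Of 8 listed, 4 fell from nB to BMPC in Dnmt3-sufficient and 6 in Dnmt3-deficient cells, and 0 rose, beside 27.6% and 30.6% of all genes that fell (medians -2.19 and -2.30, or -2.19 and -2.18 with BMPC at the floor). Ets1 (-4.98 and -4.51), Irf8 (-3.43 and -4.15) and Pou2f2, which encodes Oct-2 (-4.25 and -2.68), passed in both, while Batf and Pou2af1, the Oct coactivator OCA-B, passed in neither. Among the 7 other interferon regulatory factors tested, 6 fell and 0 rose in each genotype, whereas Irf4 passed in neither, and the difference between Irf4 and its relatives was not tested. Irf5 went from 129 ± 12.2 to 5.24 ± 6.94 FPKM (-5.13, adjusted p = 1.55e-05) and from 152 ± 14.3 to 21.0 ± 12.8 (-3.00, adjusted p = 0.00200), and Irf9 was the 1 gene of this family that passed between genotypes in BMPC (-2.62, adjusted p = 0.0443), a call lost with a spread per cell type (adjusted p = 0.416), with only these groups (adjusted p = 0.779), with quality weights (adjusted p = 0.469) and by voom (adjusted p = 0.171). Of the 3 IRF2-binding proteins that share the symbol, 2 fell in Dnmt3-sufficient and 1 in Dnmt3-deficient cells.

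For Creb3l2 the list held its relatives and the proteases and coat proteins that process or carry them. Of 10 listed 8 were tested, and 1 rose and 1 fell in Dnmt3-sufficient cells and 2 rose and 2 fell in Dnmt3-deficient cells, beside 9.74% and 27.6%, and 6.85% and 30.6%, of all genes (medians -0.12 and -1.05, or -0.12 and -0.93 with groups at the floor). Sec24d, a coat subunit of vesicles leaving the endoplasmic reticulum, rose from 4.19 ± 2.47 to 18.6 ± 6.35 FPKM (1.97, adjusted p = 0.00400) and from 4.58 ± 1.87 to 24.2 ± 9.03 (2.16, adjusted p = 0.00213). Mbtps1, the first protease to cut these factors, fell in both (-1.77, adjusted p = 0.0402, and -1.96, adjusted p = 0.0252). Creb3l1, the closest relative of Creb3l2, was at 1.04 ± 1.80 FPKM in Dnmt3-sufficient and 11.02 ± 11.2 in Dnmt3-deficient BMPC. It rose from nB in the latter (2.67, adjusted p = 0.0223, with a mean at least 62.8-fold above the floor), and its genotype difference in BMPC did not pass (2.02, adjusted p = 0.196).

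Among relatives of Ikzf3, Zbtb20 and Prdm1, falls from nB to BMPC outnumbered rises, as they did among all genes. Of the 4 other Ikaros family genes 2 were tested, and Ikzf1, which encodes Ikaros, fell from 41.2 ± 5.18 to 15.0 ± 7.47 FPKM in Dnmt3-sufficient and from 35.4 ± 8.14 to 16.8 ± 12.0 in Dnmt3-deficient cells (-1.51, adjusted p = 0.0294, and -1.34, adjusted p = 0.0481). Ikzf5, the gene for Pegasus, was at 1.13 ± 1.05 FPKM in Dnmt3-sufficient and 15.3 ± 5.72 in Dnmt3-deficient BMPC and passed between the genotypes there (3.02, adjusted p = 0.00241) and by voom (adjusted p = 0.0344), but not with a spread per cell type (adjusted p = 0.211), quality weights (adjusted p = 0.213) or only these groups (adjusted p = 0.717). Of 41 other Zbtb genes 35 were tested, and 14 fell and 1, Zbtb12, rose in Dnmt3-sufficient cells and 13 fell and 0 rose in Dnmt3-deficient cells (medians -1.10 and -0.66, against -0.70 and -0.84 over all genes). Zbtb32, a repressor of antibody recall responses, had 0 reads in all 6 BMPC libraries. Of 13 other Prdm genes 5 were tested, and 3 fell in Dnmt3-sufficient and 2 in Dnmt3-deficient cells (medians -1.59 and -1.53), Prdm9 in both (-2.33, adjusted p = 0.00754, and -2.74, adjusted p = 0.00259).

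The genes whose profile over the 18 libraries was most like each factor are given by Pearson correlation of log2(FPKM + 1), as a description in which libraries of a cell type share their depth and composition. For Xbp1 they were Oosp1 (0.982), Rprl1 (0.980) and Ssr4 (0.977), the last a subunit of the translocon-associated complex. For Prdm1 they were Fndc3b (0.959), Bet1 (0.944), a vesicle fusion protein, and Tmem37 (0.939), and for Creb3l2 Spry2 (0.955), Ly6c2 (0.948) and Epcam (0.942). For Irf4 they were Vkorc1 (0.935), Il12a (0.910) and Immp2l (0.903), which share its dip in GCB. For Ikzf3 they were Mtmr14 (0.948), the glycolytic enzyme gene Pkm (0.945) and Gdi2 (0.942), and for Zbtb20 the condensin subunit gene Smc4 (0.923), Aacs (0.916) and Mtf2 (0.911), all highest in GCB.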

How the data were processed

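RNA of sorted cells was copied to cDNA, amplified by PCR and sequenced. Each nB and BMPC library came from 1 mouse and each GCB library from 2. Per the study's methods, the authors mapped reads to mm9 with TopHat, kept unique hits and counted them over exons of UCSC KnownGenes, with strand use not stated, so antisense genes could not be separated. The deposited FPKM values were scaled by the authors to exon length and to the reads on listed genes. The submitters' processing notes also name Picard, R 3.2.2 and edgeR 3.12.1. The authors' fold change and FDR columns were not used.

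FPKM times exon length and library size gave whole reads for 100% of values (within 0.01 read). limma 3.58.1 in R 4.3.3 was fitted to log2(FPKM + 1) over all 18 libraries with 1 mean per group and an intensity trend, two-sided. Benjamini-Hochberg adjustment ran over the 11522 genes that exceeded an FPKM of 1 in 2 or more libraries. The fit was tested on simulated data with a wider spread in BMPC than elsewhere. The spreads and the number and size of the changed genes were set by hand. It recovered most changed genes in the right direction, but under these settings most of its calls between genotypes in BMPC were false. Fewer were false with a spread per cell type (limma array weights by cell type), which was therefore added as an alternative after seeing the data. The share of false calls depends on the settings and is no estimate for the real libraries. Replicates within a group were not copies of each other (chi-square over degrees of freedom was never below 22.3). A fold against a group at 0 takes 3 reads per library as floor and compares group means, so single libraries can lie below it. As PCR copies are not separate molecules, such limits describe counting alone. Intervals are 95% and not adjusted.

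The members and gene lists were chosen with earlier results of these data known. Named were the 6 factors, the 3 genes most correlated with each, and up to 4 genes per list with the widest change between nB and BMPC. Syvn1, the 6 XBP1 targets that passed in neither genotype, Myc, Batf, Pou2af1, Irf9 and Zbtb12 were chosen after their values were seen, as were the single markers named. As alternatives, the pseudocount was set to 0.1, the expression filter was dropped or raised (FPKM over 3 in 3 or more libraries), libraries were scaled by median of ratios or without Jchain, only the compared groups were fitted, sex was added as covariate, libraries were weighted by quality, voom was run on the recovered reads, the adjusted p was lowered to 0.01, the minimum change was dropped, each library was left out, and the number in GCB titles served as block.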

Additional observations from a re-analysis of the deposited data

How the results depend on the processing

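With a title number as replicate block in GCB, 0 of the 6 factors passed between genotypes, as without it (Xbp1 -0.79, Creb3l2 -0.57, adjusted p = 1). Same-numbered GCB libraries share their sex but did not deviate together (correlations -8.1e-05, -0.017 and 0.026). Such correlations cannot decide whether the numbers mark a shared litter, day or batch. Of the results other than leave-one-out, 834 kept direction and side of the threshold, 14 lost and 14 gained a call, and 8 changed sign. With 1 library left out these were 497, 16, 8 and 19.

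In GCB against nB the count of factors that passed moved from 1 to 0 in Dnmt3-sufficient cells (pseudocount of 0.1, adjusted p of 0.01) or to 2 (higher FPKM filter, only the groups compared, quality weights, voom, a spread per cell type), and from 2 to 1 (adjusted p of 0.01) or 4 (only the groups compared, quality weights, voom, a spread per cell type) in Dnmt3-deficient cells. It moved from 4 to 2 for BMPC against nB in Dnmt3-sufficient cells fitted alone. With 1 library left out it ranged from 0 to 2 between genotypes in BMPC, 0 to 1 for GCB against nB in Dnmt3-sufficient and 1 to 2 in Dnmt3-deficient cells.

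Changes of sign concerned values that did not pass. With a pseudocount of 0.1, Prdm1 was at 0.019 between genotypes in nB and -0.20 for GCB against nB in Dnmt3-deficient cells, and Irf4 at -0.20 for BMPC against GCB there. By voom these were 0.77, -1.07 and -0.15. Quality weights gave -0.012 for the second, and median of ratios gave 0.011 for the interaction of Creb3l2 with BMPC against nB. With 1 library left out, between genotypes in nB Prdm1 ranged from -0.23 to 0.17, Irf4 from -0.40 to 0.0064 and Xbp1 from -0.14 to 1.01, and in GCB Irf4 from -0.017 to 0.68, Zbtb20 from -0.091 to 0.20 and Ikzf3 from -0.14 to 0.024. For GCB against nB, Xbp1 ranged from -0.48 to 0.67 and Creb3l2 from -0.68 to 0.012 in Dnmt3-sufficient cells, and Prdm1 from -0.17 to 0.11 in Dnmt3-deficient cells. In Dnmt3-deficient BMPC, Zbtb20 against nB ranged from -0.46 to 0.075 and Irf4 against GCB from -0.69 to 1.54. The interactions with BMPC against nB ranged from -0.88 to 0.27 for Xbp1 and -0.49 to 0.21 for Creb3l2. The cause was not tested.

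Counts over all genes moved too. Between genotypes in BMPC 459 genes passed, against 0 with only these groups, 17 with a spread per cell type, 18 with quality weights, 262 by voom and 162 at an adjusted p of 0.01. For nB these were 6 against 0, 11, 9 and 2, with 10 for a spread per cell type, 3 at a pseudocount of 0.1 and 20 unfiltered, and for GCB 0 against 0, 3, 2 and 0, with 2 for a spread per cell type and 2 unfiltered. Fitted alone, GCB against nB had 2653 and 2561 calls (1631 and 1489 with all libraries, 3259 and 3163 with quality weights, 3304 and 2925 with a spread per cell type), and BMPC against nB 2806 and 2836 (4299 and 4311 with all libraries). At an adjusted p of 0.01 these fell to 980 and 852 and to 2805 and 2762, and BMPC against GCB to 1889 and 2259 (from 3175 and 3719). Interactions with BMPC against nB and GCB had 64 and 49 calls, 26 and 26 from their groups alone, 15 and 13 with quality weights, 12 and 8 with a spread per cell type, 124 and 94 by voom, 30 and 29 at an adjusted p of 0.01, and 87 for the second at a pseudocount of 0.1. That with GCB against nB had 0, with 5 unfiltered, 4 from its groups alone, 3 with a spread per cell type and 1 with quality weights.

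With 1 spread for all libraries, adjusted p-values between genotypes in BMPC are too small, and 459 genes passed against 17 with a spread per cell type. Adjusted p-values of BMPC against nB or GCB tend to be too small as well. Precision is limited by the 3 libraries per group and by the lower depth of BMPC, where 10 reads or fewer stood behind the lowest values of Prdm1 and Irf4.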
